A study of Homo sapiens with 6 samples.

Results

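The 34 human genes described here belong to the family of lysine methyltransferases with a SET domain or its PR variant, SETD8 itself left out, and some encode relatives whose own activity is debated or not established. They were followed in colorectal cancer cells that overexpress SETD8. Members were taken by name, with the KMT5 genes left out, and all 34 were found by symbol in GENCODE release 29 among the 58735 gene IDs counted. The overexpressing cells were HCT116, an established human colorectal carcinoma line, transduced with a lentiviral SETD8 construct (genotype label SETD8 overexpression). Their controls were HCT116 cells transduced with the lentiviral Vector (genotype label WT), and both were selected with puromycin. There were 3 SETD8 and 3 Vector libraries of poly(A)-selected RNA. The protocol speaks of stable clones without saying how many were used, and the series' design text calls the delivery transfection.

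SET-domain enzymes transfer methyl groups from S-adenosylmethionine to lysine side chains, most of them on histone tails. Enzymes for histone H3 lysine 4 (H3K4) work at promoters and enhancers, those for lysine 36 (H3K36) mostly in transcribed gene bodies, and those for lysines 9 and 27 (H3K9, H3K27) in silent chromatin. SETD8, now named KMT5A, adds a single methyl group to lysine 20 of histone H4. Other SET-domain enzymes act mainly on proteins outside the nucleosome.

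Libraries held 17056672 to 18785454 counts in the SETD8 group and 17187722 to 20471843 in the Vector group. KMT5A, the targeted gene, had 65.4, 66.2 and 75.5 CPM (normalised read counts, scaled by library size and composition) in SETD8 replicates 1, 2 and 3, against 46.0, 47.3 and 53.9 CPM in Vector replicates 1, 2 and 3. Along principal component 1, computed on log2 CPM, the SETD8 libraries stood at -23.8 to -16.5, while Vector replicates 1, 2 and 3 stood at -0.94, 25.7 and 39.3, so Vector replicate 1 lay between the groups. Of the 6 epithelial markers, EPCAM, KRT8, KRT18 and CDH1 were expressed, while the intestinal markers CDH17 and VIL1 were near 0 in both groups. CDH1 averaged 80.7 CPM in SETD8 cells and 117 CPM in Vector cells (edgeR adjusted p = 0.0218), and the part of this in the results below was not tested. Summed markers of other cell types reached at most 4.83 CPM (fibroblast), 1.80 (endothelial) and 0.47 (blood) in a SETD8 library, and 6.97, 2.25 and 0.49 CPM in a Vector library. In bulk RNA, fewer cells of a type and less RNA per cell cannot be told apart. The labels do not state whether the replicates are separate cultures. The p-values therefore describe the spread among these 6 libraries, and that spread may be technical.

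Of the 34 family genes, NSD2 and KMT2D fell in SETD8 cells and 0 rose (adjusted p under 0.05 in edgeR's quasi-likelihood test over 14370 genes, adjusted by Benjamini-Hochberg). These falls are 5.88% of the members, and 4.75% of all genes tested fell, so the share lies near that of all genes. Rises made up 3.08% of all genes tested. At an unadjusted p under 0.05 there were 9 lower and 3 higher members, together 35.3% of the list against 26.0% of all genes. DESeq2 called 5 members lower and 1 higher (6.99% and 5.7% of all genes), limma-voom 1 and 0 (4.32% and 3.26%), and edgeR with no low-count filter 7 and 1 (3.83% and 3.46%). The DESeq2 shares are of the 12976 genes with an adjusted p in that fit. The shares with no filter are of 27442 genes, which include low-count genes that the main fit dropped. GC correction called 3 lower (NSD1, NSD2 and SETD2) and 0 higher (6.06% and 4.41%). Library totals gave 1 lower and 1 higher (3.51% and 5.51%), and leaving out Vector replicate 1 gave 10 lower and 1 higher (11.8% and 12.0%). Corrections for gene length gave 0 lower and 1 higher by annotated exons (5.07% and 3.61%), and 1 and 1 by the longest transcript (5.5% and 4.08%). With replicate number as a block, 2 members passed (8.19% of all genes, either direction), and with that block and length correction 0 (7.5%). Without Vector replicate 3, 2 passed (7.44%). All 34 members passed the low-count filter, the lowest count of a member in any library being 52.

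Most members leaned to lower values in SETD8 cells without passing the test. The log2 fold change was below 0 in 27 of the 34 members (79.4%), against 50.0% of all genes tested. Its median was -0.15 over the members and 0.00047 over all genes. The values ran from -0.56 (KMT2C) to 0.69 (SETDB2), with standard errors (SE) of 0.08 to 0.21. All 3 SETD8 libraries lay below all 3 Vector libraries for 8 members (23.5%, against 15.9% of all genes) and above them for 4 members (11.8%, against 14.4%). Scaling by library totals alone gave 23 members below 0, and 6309 of the 14370 genes tested, where the main scaling gave 7179. The medians under library totals were -0.11 over the members and 0.043 over all genes.

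**Figure D1:**
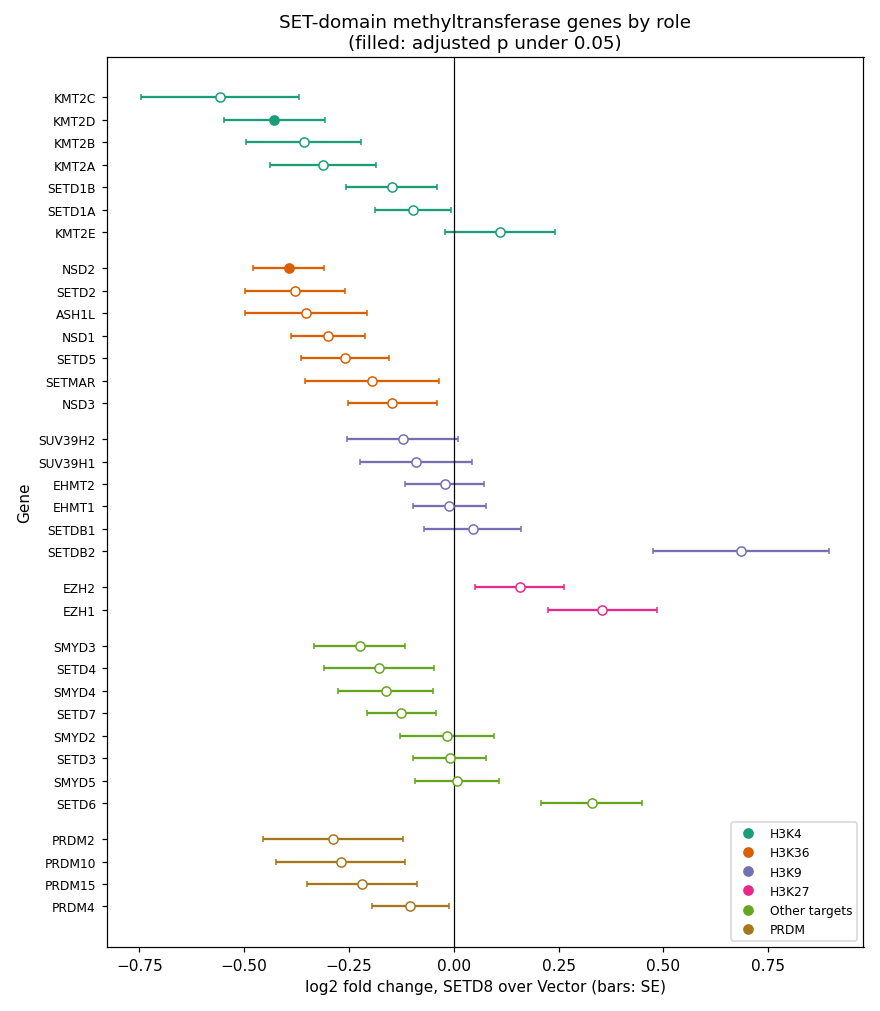
Log2 fold change (SETD8 over Vector, x axis) of the 34 genes, grouped and coloured by role, with bars for the SE and filled points for an adjusted p under 0.05. NSD2 and KMT2D are the 2 filled points, the H3K36 genes all lie below 0, and both H3K27 genes lie above it.

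NSD2 and KMT2D, the members that fell, encode very different enzymes. NSD2 (also called MMSET) places 2 methyl groups on H3K36 between genes and within them, and KMT2D places a single methyl group on H3K4 at enhancers. Their promoters are shown because these are the called members, as the 250 bases before the RefSeq start (GRCh38.p14), with the GC box GGGCGG and the CCAAT box CCAAT on either strand in capitals (TATAAA was also searched).
NSD2, chr4:1871143-1871392, plus strand: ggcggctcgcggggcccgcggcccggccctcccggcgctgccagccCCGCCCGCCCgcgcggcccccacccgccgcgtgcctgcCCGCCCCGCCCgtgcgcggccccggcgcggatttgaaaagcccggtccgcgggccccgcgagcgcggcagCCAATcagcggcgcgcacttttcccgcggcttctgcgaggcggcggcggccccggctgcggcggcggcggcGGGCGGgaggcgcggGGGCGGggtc
KMT2D, chr12:49060795-49061044, minus strand: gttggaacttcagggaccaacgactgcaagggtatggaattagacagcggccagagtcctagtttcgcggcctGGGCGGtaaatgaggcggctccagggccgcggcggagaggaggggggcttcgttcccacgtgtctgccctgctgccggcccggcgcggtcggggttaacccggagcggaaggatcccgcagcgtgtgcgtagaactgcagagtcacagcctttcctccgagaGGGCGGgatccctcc
The NSD2 stretch is 86% G or C and holds 6 GC boxes, some of which share bases, 1 CCAAT box and 0 TATAAA. The KMT2D stretch is 65.6% G or C and holds 2 GC boxes and 0 of the other 2 motifs. Over 35116 RefSeq promoters of the same length the median G or C content was 58%, and 42.6% held a GC box, 32% a CCAAT box and 10.7% a TATAAA. The RefSeq starts differ from the GENCODE ends given below. A match describes the letters and not binding. For 32 of the 34 members a promoter was found in the table.

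NSD2 (ENSG00000109685, chromosome 4 from 1871424 to 1982207, GRCh38) had 165, 166 and 187 CPM in SETD8 replicates 1, 2 and 3, against 218, 228 and 235 CPM in Vector replicates 1, 2 and 3. Every SETD8 library lay below every Vector library. The means were 172 ± 12.5 CPM in SETD8 cells and 227 ± 8.58 CPM in Vector cells (SD, n = 3 each), which is 1.31-fold lower. In log2 terms the change was -0.39 with an SE of 0.08 (edgeR adjusted p = 0.0181). It was -0.43 without Vector replicate 1 (edgeR adjusted p = 0.00155). NSD2 no longer passed once Vector replicate 2 was left out (edgeR adjusted p = 0.108), nor without SETD8 replicates 1, 2 or 3 (edgeR adjusted p = 0.115, 0.0921 and 0.0625). Those 4 fits called 0.491%, 0.0747%, 1.06% and 0.873% of all genes.

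KMT2D (ENSG00000167548, chromosome 12 from 49018975 to 49059774) had 186, 205 and 196 CPM in SETD8 replicates 1, 2 and 3, against 245, 222 and 322 CPM in Vector replicates 1, 2 and 3. The groups did not overlap, but Vector replicate 3 stood well above the other Vector libraries. The means were 196 ± 9.80 CPM in SETD8 cells and 263 ± 52.5 CPM in Vector cells (SD, n = 3 each), and the log2 change was -0.43 with an SE of 0.12 (edgeR adjusted p = 0.0468). Without Vector replicate 3 it was -0.25 (edgeR adjusted p = 0.0474). Leaving out Vector replicate 1 gave -0.48 (edgeR adjusted p = 0.00463). KMT2D did not pass once Vector replicate 2 was left out (edgeR adjusted p = 0.0797), without SETD8 replicates 1, 2 or 3 (edgeR adjusted p = 0.187, 0.117 and 0.161), with library totals (-0.39, edgeR adjusted p = 0.0705), with limma-voom (-0.41, adjusted p = 0.0553) and with GC correction (-0.43, edgeR adjusted p = 0.0755). It shares 261 exon bases with DDN-AS1 on the opposite strand.

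All 7 genes of the H3K36 group had log2 fold changes below 0, from -0.39 (NSD2) to -0.15 (NSD3), with a median of -0.30, where 50.0% of all genes tested lay below 0. As tested, NSD2 alone passed the adjusted threshold (4.75% of all genes fell), and 5 of the 7 had an unadjusted p under 0.05 (26.0% of all genes). NSD1, a paralog that also places 2 methyl groups on H3K36, had 116, 126 and 115 CPM in SETD8 replicates and 145, 136 and 159 CPM in Vector replicates 1, 2 and 3. Its groups did not overlap (log2 fold change -0.30, SE 0.09, edgeR adjusted p = 0.0535). NSD1 passed with DESeq2 (adjusted p = 0.0326), with GC correction (edgeR adjusted p = 0.0422) and with low-count genes kept in (edgeR adjusted p = 0.0415), but not with limma-voom (adjusted p = 0.0575) or length correction (-0.12, edgeR adjusted p = 0.383). SETD2, the enzyme that adds the third methyl group to H3K36 behind RNA polymerase II, had 47.5, 49.1 and 44.2 CPM in SETD8 replicates and 51.6, 59.0 and 72.7 CPM in Vector replicates 1, 2 and 3 (-0.38, SE 0.12, edgeR adjusted p = 0.0687). For SETD2 the groups stood apart by a small gap, with Vector replicate 1 nearest to the SETD8 libraries. SETD2 passed in the same 3 fits (adjusted p = 0.0413 in DESeq2, 0.0425 in edgeR with GC correction and 0.0136 in edgeR with low-count genes kept in), and not with limma-voom (adjusted p = 0.0827) or length correction (-0.25, edgeR adjusted p = 0.118).

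ASH1L, an H3K36 enzyme of the trithorax group, had 42.2, 52.5 and 43.2 CPM in SETD8 replicates and 47.5, 55.3 and 73.4 CPM in Vector replicates 1, 2 and 3 (log2 fold change -0.35, SE 0.15, edgeR adjusted p = 0.147). Its groups overlapped. SETD5, whose own enzymatic activity is debated, had 78.4, 87.2 and 86.5 CPM in SETD8 replicates and 88.1, 98.0 and 116 CPM in Vector replicates 1, 2 and 3 (-0.26, SE 0.10, edgeR adjusted p = 0.138), with groups that did not overlap. SETMAR, a fusion of a SET domain with a mariner transposase, had -0.19 and NSD3, the third NSD enzyme, had -0.15 (edgeR adjusted p = 0.466 and 0.404). Without Vector replicate 1, NSD1, NSD2, SETD2, SETD5 and ASH1L all passed as lower (edgeR adjusted p = 0.0186, 0.00155, 0.00185, 0.0109 and 0.00552), in a fit that called 11.8% of all genes as lower. NSD3 shares 545 exon bases with DDHD2 on the opposite strand, and ASH1L shares 134 with ASH1L-AS1. No source used here states whether counting used strand, so reads over such overlaps are uncertain.

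In the H3K4 group, 6 of the 7 genes had log2 fold changes below 0. KMT2A, KMT2B, KMT2C and KMT2D lay between -0.31 and -0.56, and as tested KMT2D alone passed. KMT2C, the paralog of KMT2D at enhancers, had 28.0, 25.7 and 24.7 CPM in SETD8 replicates and 27.5, 35.5 and 52.6 CPM in Vector replicates 1, 2 and 3. Its groups overlapped because Vector replicate 1 lay among the SETD8 values, and Vector replicate 3 was far above. The log2 fold change was -0.56 (SE 0.19, edgeR adjusted p = 0.0876), but -0.75 without Vector replicate 1 (edgeR adjusted p = 0.000472). Leaving out Vector replicate 3 gave -0.27 (edgeR adjusted p = 0.205). KMT2C passed with DESeq2 (adjusted p = 0.0261) and with low-count genes kept in (edgeR adjusted p = 0.000397), and not with limma-voom (adjusted p = 0.111) or length correction (-0.32, edgeR adjusted p = 0.153). The 5 named pseudogene copies of KMT2C had 0 counts in each library, and how reads shared with them were counted is not known.

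KMT2A, the gene of the MLL protein, had 43.6, 49.8 and 42.7 CPM in SETD8 replicates and 50.1, 50.6 and 68.4 CPM in Vector replicates 1, 2 and 3 (log2 fold change -0.31, SE 0.13, edgeR adjusted p = 0.139). Its groups were separated only narrowly. KMT2A shares 5599 exon bases on its own strand with a second protein-coding annotation (ENSG00000285827), which had 0 counts in each library. KMT2B, its closest paralog, had 30.1, 36.8 and 30.7 CPM in SETD8 replicates and 38.9, 35.7 and 50.6 CPM in Vector replicates 1, 2 and 3 (-0.36, SE 0.14, edgeR adjusted p = 0.119), with SETD8 replicate 2 above Vector replicate 2. KMT2B passed with low-count genes kept in (edgeR adjusted p = 0.0419), and not with DESeq2 (adjusted p = 0.0917) or limma-voom (adjusted p = 0.136). SETD1A (-0.10) and SETD1B (-0.15), catalytic subunits of the complexes that add 3 methyl groups to H3K4 at promoters, did not pass (edgeR adjusted p = 0.528 and 0.411). KMT2E, a relative that reads methylated H3K4, had 0.11 (edgeR adjusted p = 0.629). Without Vector replicate 1, KMT2A, KMT2B, KMT2C and KMT2D passed as lower. Without Vector replicate 3 the log2 fold changes of KMT2A, KMT2B and ASH1L were -0.15, -0.19 and -0.16.

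**Figure D2:**
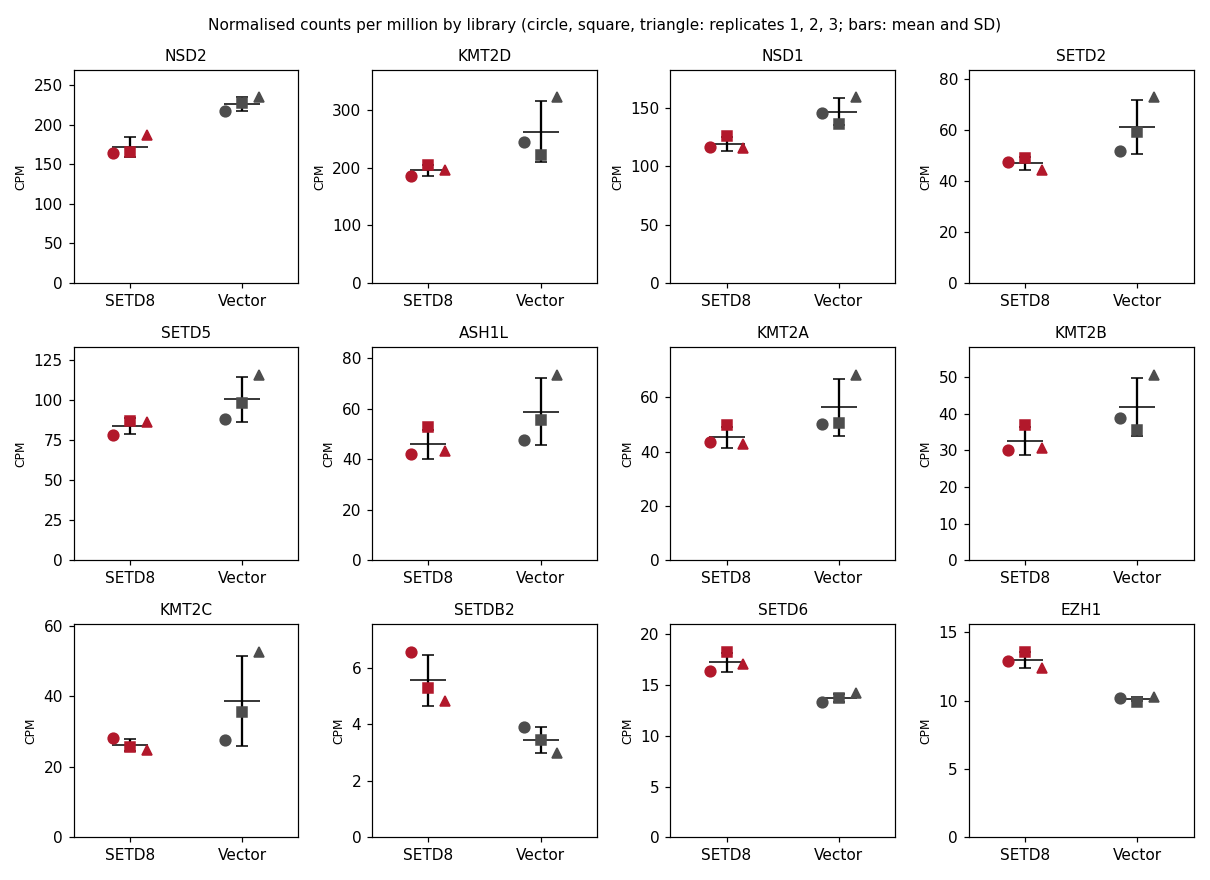
Normalised CPM (y axis, from 0) of the 12 genes with an unadjusted p under 0.05 in SETD8 (left, red) and Vector (right, grey) libraries, with symbols for replicates 1, 2 and 3 and bars for the mean and SD. Vector replicate 3 (triangle) is the highest Vector library for all of the genes with lower means in SETD8 cells, and SETDB2, SETD6 and EZH1 show every SETD8 library above every Vector library.

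Summed over their members per kilobase of annotated exon, the H3K36 genes gave 37.3 ± 1.37 CPM per kilobase in SETD8 cells and 46.3 ± 4.83 in Vector cells (SD, n = 3 each). The H3K4 genes gave 31.2 ± 1.57 in SETD8 cells and 37.2 ± 5.12 in Vector cells. The 2 H3K27 genes gave 9.63 ± 0.69 in SETD8 cells and 8.42 ± 0.21 in Vector cells. The H3K9 genes gave 27.3 ± 0.82 in SETD8 cells and 27.8 ± 1.13 in Vector cells, a difference within the spread of the libraries. Vector replicate 3 was the highest of the 3 Vector libraries for 25 of the 34 members. The share of all genes with that order is not given here, so the count is not set apart from theirs.

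The members have long transcripts, and fold change went with length. Their annotated exons span 3368 to 31305 bases, with a median of 7300.5 against 4745 for all genes tested, and 29 of 34 lie above the all-gene median. Across the 34 members, Spearman's rho between log2 fold change and exon length was -0.57, and across all genes tested it was -0.31. These are descriptions over genes that share the same 6 libraries. All 14 members with over 10000 exon bases had log2 fold changes below 0 (median -0.31), and 13 of the 20 shorter ones did (median -0.06). The shares of all genes above and below that length are not given here, so these counts are not set apart from the all-gene trend. The 14 members of the H3K4 and H3K36 groups had a median exon length of 12052 bases, and the other 20 had 6652.

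With each library's trend over exon length removed, the median log2 fold change of the members was -0.085 (all genes -0.0013). Of the 34 members 24 were below 0, and of the 14370 genes tested 7211 were. The values of NSD2 and KMT2D were -0.18 and -0.20, and neither passed (edgeR adjusted p = 0.193 and 0.168). The median of the H3K36 group was -0.18 and that of the H3K4 group -0.059. When the longest transcript stood for length, an alternative added after the data were seen, NSD2 had -0.24 (edgeR adjusted p = 0.0630) and KMT2D -0.15 (edgeR adjusted p = 0.251). Whether the length trend is technical was not tested.

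**Figure D3:**
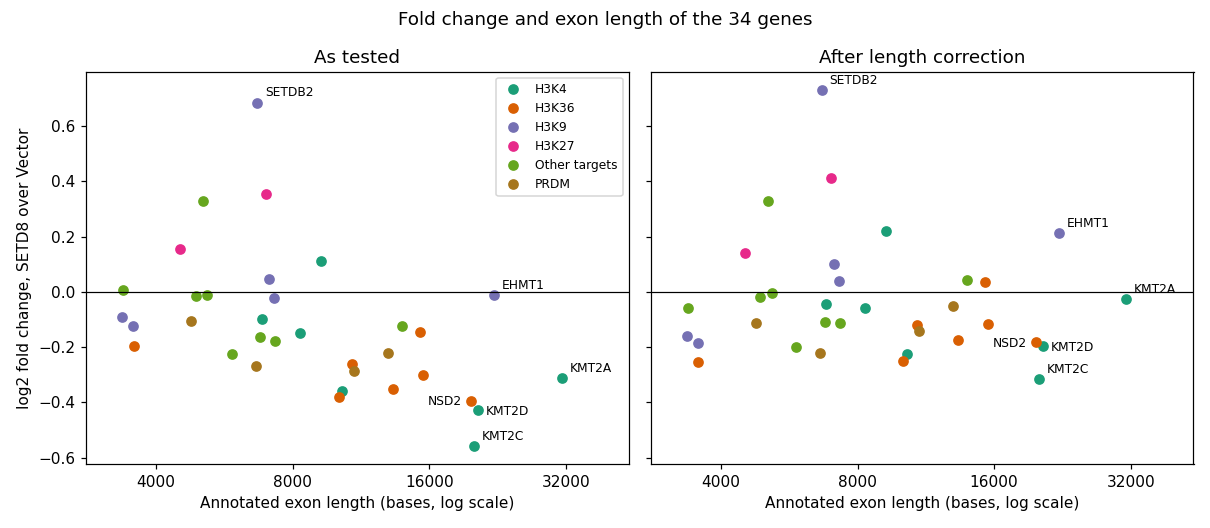
Log2 fold change (SETD8 over Vector, y axis) against annotated exon length (log x axis, bases) of the 34 genes, coloured by role, as tested (left) and after removing each library's length trend (right). KMT2C, KMT2D, NSD2 and KMT2A lie nearer 0 on the right than on the left, EHMT1 moves above 0, and SETDB2 is the highest point in both.

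Among the H3K9 genes, SETDB2 stood apart from the rest. It encodes a less studied relative of SETDB1 that adds the third methyl group to H3K9. It had 6.57, 5.28 and 4.83 CPM in SETD8 replicates 1, 2 and 3, against 3.92, 3.44 and 3.00 CPM in Vector replicates 1, 2 and 3. All SETD8 libraries were above all Vector libraries (log2 fold change 0.69, SE 0.21, 95% interval 0.10 to 1.27, edgeR adjusted p = 0.0618). SETDB2 passed with length correction (0.73, edgeR adjusted p = 0.0454), with library totals (0.73, edgeR adjusted p = 0.0444), when low-count genes were kept in (edgeR adjusted p = 0.0462), with DESeq2 (adjusted p = 0.0487), with longest-transcript correction (edgeR adjusted p = 0.0338) and without Vector replicate 1 (0.78, edgeR adjusted p = 0.0209). SETDB2 did not pass with limma-voom (adjusted p = 0.0698), with GC correction (edgeR adjusted p = 0.0623), with a replicate block (edgeR adjusted p = 0.0666) or with that block and length correction (edgeR adjusted p = 0.0510). Leaving out any of the other libraries gave edgeR adjusted p-values of 0.114 to 0.243.

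The other 5 H3K9 genes had log2 fold changes between -0.12 and 0.04. SETDB1, the enzyme recruited by KAP1 to silence repeats, had 0.04 (95% interval -0.27 to 0.36). EHMT1 and EHMT2, which form the G9a-GLP complex that adds up to 2 methyl groups, had -0.01 (-0.25 to 0.23) and -0.02 (-0.29 to 0.24). SUV39H1 and SUV39H2, the enzymes of pericentric heterochromatin, had -0.09 (-0.46 to 0.28) and -0.12 (-0.49 to 0.25). SETDB1 shares 948 exon bases with CERS2 on the opposite strand, and EHMT2 shares 592 with EHMT2-AS1, which was at or near 0 in each library.

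Both H3K27 genes, the alternative catalytic subunits of Polycomb repressive complex 2 (PRC2), had higher means in SETD8 cells, and neither passed the adjusted threshold. EZH1 had 12.9, 13.6 and 12.4 CPM in SETD8 replicates and 10.2, 9.93 and 10.3 CPM in Vector replicates 1, 2 and 3 (log2 fold change 0.35, SE 0.13, edgeR adjusted p = 0.106). EZH2 had 33.6, 32.8 and 39.1 CPM in SETD8 replicates and 31.4, 30.8 and 32.4 CPM in Vector replicates 1, 2 and 3 (0.16, SE 0.11, edgeR adjusted p = 0.373). In both cases all SETD8 libraries lay above all Vector libraries (14.4% of all genes), and the Vector libraries lay close together. For EZH2 the gap was narrow, 32.4 CPM in Vector replicate 3 against 32.8 CPM in SETD8 replicate 2. Per kilobase EZH1 stood at 0.24 ± 0.032 of the EZH2 level in SETD8 cells and 0.208 ± 0.003 in Vector cells (SD, n = 3 each). These ratios overlapped, with SETD8 replicate 3 (0.2048) inside the Vector range of 0.2046 to 0.2101. The EZH2 pseudogene EZH2P1 had 0 counts.

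Among 8 enzymes known mainly for other targets, none passed the adjusted threshold in edgeR, DESeq2 or limma-voom (7.83%, 12.7% and 7.59% of all genes). SETD6 alone had an unadjusted p under 0.05 in edgeR (26.0% of all genes). SETD6, which methylates the NF-kappaB subunit RELA, had 16.4, 18.3 and 17.0 CPM in SETD8 replicates and 13.3, 13.7 and 14.2 CPM in Vector replicates 1, 2 and 3, with no overlap (log2 fold change 0.33, SE 0.12, edgeR adjusted p = 0.106). It shares 1086 exon bases with CNOT1 on the opposite strand, which averaged 232 CPM in SETD8 cells and 291 CPM in Vector cells. SMYD3, which methylates the kinase MAP3K2, had 27.5, 23.0 and 25.8 CPM in SETD8 replicates and 29.4, 30.1 and 29.6 CPM in Vector replicates 1, 2 and 3 (-0.22, SE 0.11, edgeR adjusted p = 0.210). Its groups did not overlap, and of the alternatives run it passed only with correction by the longest transcript (-0.36, edgeR adjusted p = 0.0442). SETD7, an enzyme for single methyl groups on H3K4 and many other proteins, had -0.12 (95% interval -0.36 to 0.11). SETD3, the actin histidine methyltransferase, had -0.01 (-0.25 to 0.23), SMYD2, which methylates p53, -0.02 (-0.33 to 0.30), SMYD4 -0.16 and SETD4 -0.18.

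The 4 PRDM genes, which encode zinc finger proteins with a PR domain, had log2 fold changes of -0.10 to -0.29. None had an unadjusted p under 0.05 in edgeR (26.0% of all genes). PRDM2, the retinoblastoma-binding zinc finger gene, had -0.29 (edgeR adjusted p = 0.294), but passed without Vector replicate 1 (-0.47, edgeR adjusted p = 0.0153). PRDM10 had -0.27, PRDM15 -0.22 and PRDM4 -0.10 (edgeR adjusted p = 0.283, 0.308 and 0.504). For PRDM15 the groups did not overlap. DESeq2 and limma-voom called 0 of the 4 (12.7% and 7.59% of all genes).

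Per kilobase of annotated exon, SMYD5 was the highest member and SETDB2 the lowest. SMYD5, of the SMYD family, had 79.5, 65.8 and 71.5 CPM in SETD8 replicates and 78.5, 70.9 and 66.2 CPM in Vector replicates 1, 2 and 3, so the groups overlapped widely (log2 fold change 0.01, 95% interval -0.27 to 0.29). This equals 21.4 CPM per kilobase in SETD8 cells and 21.3 in Vector cells. PRDM4 and SETD7 came next, at means of 13.2 and 12.0 CPM per kilobase over the 6 libraries. SETDB2 had 0.832 CPM per kilobase in SETD8 cells and 0.517 in Vector cells. By the longest transcript SMYD5 and SETDB2 kept their places, while NSD2 stood at place 2 in place of 6, its annotated exons covering 19776 bases and its longest transcript 8568.

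**Figure D4:**
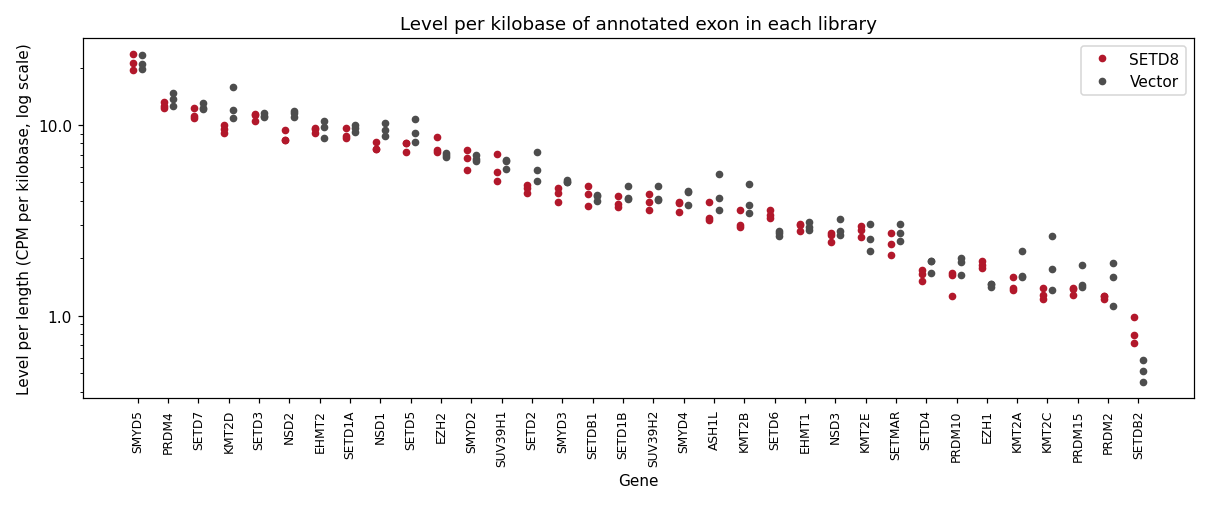
Level per kilobase of annotated exon (log y axis) of each gene in the SETD8 (red, left) and Vector (grey, right) libraries, ordered by the mean over the 6 libraries. SMYD5 is the highest and SETDB2 the lowest. The groups overlap for 22 of the 34 genes and not for the other 12 (35.3%, against 30.3% of all genes tested).

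Lists of genes for complex partners, readers, demethylases, arginine methyltransferases, methyl donor enzymes and other relatives held 95 tested genes, of which 8 (8.42%) passed the adjusted threshold. This share lies near the 7.83% of all genes tested. In each list below, falls stand beside 4.75% of all genes tested that fell, and rises beside 3.08% that rose. In the H3K4 complexes, 1 of 15 subunit genes fell and 0 rose. This was HCFC1, a scaffold of the SETD1 and MLL complexes, with 193 ± 5.33 CPM in SETD8 cells and 238 ± 19.0 CPM in Vector cells (SD, n = 3 each; log2 fold change -0.30, edgeR adjusted p = 0.0480). The shared core subunits WDR5 (-0.06), RBBP5 (-0.10) and ASH2L (0.04) did not pass, and DPY30 had 0.39 (edgeR adjusted p = 0.0617). DPY30 was the 1 gene of the 15 that DESeq2 called higher (adjusted p = 0.0342), in a fit that called 5.7% of all genes higher. Of 11 genes of PRC2 and its accessory factors, LCOR, whose locus also encodes a PRC2 accessory protein, fell (69.1 ± 3.22 CPM in SETD8 cells, 90.3 ± 12.8 CPM in Vector cells, log2 fold change -0.39, edgeR adjusted p = 0.0433). The core subunits EED (0.25) and SUZ12 (0.06) did not pass.

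Among 13 partners of the H3K9 enzymes, MORC2 rose and CBX5 fell (3.08% and 4.75% of all genes tested). MORC2, an ATPase that works with the HUSH silencing complex, had 40.5, 39.0 and 38.4 CPM in SETD8 replicates and 28.3, 24.4 and 20.7 CPM in Vector replicates 1, 2 and 3 (log2 fold change 0.68, SE 0.12, edgeR adjusted p = 0.00848). Its SETD8 values lay close together and all above its Vector values. CBX5, the gene of the H3K9 methyl reader HP1 alpha, had 92.4, 86.5 and 94.5 CPM in SETD8 replicates and 108, 125 and 135 CPM in Vector replicates 1, 2 and 3 (-0.43, SE 0.10, edgeR adjusted p = 0.0206). With length correction MORC2 still passed (0.72, edgeR adjusted p = 0.00274) and CBX5 did not (-0.25, edgeR adjusted p = 0.0634). Of 11 genes that read H3K36 methylation or work with SETD2, SUPT6H fell by 0.32 on the log2 scale (edgeR adjusted p = 0.0477). DESeq2 called 1 of the 11 lower and 1 higher (6.99% and 5.7% of all genes), and limma-voom called 0 in either direction (4.32% and 3.26%).

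Of 22 lysine demethylase genes, 0 passed in edgeR, DESeq2 or limma-voom (7.83%, 12.7% and 7.59% of all genes). Their median log2 fold change was -0.06, and 3 had an unadjusted p under 0.05 in edgeR (26.0% of all genes). Of 9 tested genes for arginine methyltransferases and their partner WDR77, 0 passed in those 3 fits. In edgeR 1 of the 9 had an unadjusted p under 0.05, against the same 26.0% of all genes. Among 9 genes of the methyl donor cycle, AHCYL1, a relative of the adenosylhomocysteine hydrolase, and MTRR, which keeps methionine synthase active, fell. Falls made up 4.75% of all genes tested, and whether 2 of 9 differs from that share was not tested. AHCYL1 had 134 ± 4.11 CPM in SETD8 cells and 177 ± 16.9 CPM in Vector cells (-0.40, edgeR adjusted p = 0.0211), and MTRR had 47.7 ± 3.82 CPM in SETD8 cells and 64.5 ± 7.16 CPM in Vector cells (-0.43, edgeR adjusted p = 0.0280; SD, n = 3 each). The gene of the main donor enzyme, MAT2A, had -0.08. Of 7 tested genes among other SET and PR genes and DOT1L, the H3K79 methyltransferase gene DOT1L fell (98.2 ± 6.95 CPM in SETD8 cells, 128 ± 8.97 CPM in Vector cells, -0.38, edgeR adjusted p = 0.0258). Leaving out Vector replicate 2 or SETD8 replicate 1, 2 or 3 left 0 of the 8 past the threshold. Scaling by library totals did not pass HCFC1, LCOR or SUPT6H (edgeR adjusted p = 0.0792, 0.0663 and 0.0738), nor did they pass without Vector replicate 3 (edgeR adjusted p = 0.0600, 0.0630 and 0.0538). With length correction MORC2, AHCYL1 and MTRR passed among the 8.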

How the data were processed

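Messenger RNA of 6 HCT116 samples was measured. Per the labels' protocols, RNA came from TRIzol extraction, and the library kit (Illumina TruSeq, with poly(A) selection) marks strand. The deposited table holds raw read counts per Ensembl gene. Builds GRCh38 and hg38 and the tools featureCounts, HTSeq, HISAT2 and STAR are listed in the submitters' processing notes. Which tool did what, the versions, annotation and strand setting were not found in those sources. Columns named NC were taken as the Vector libraries, since only 2 groups are labelled, with the number as the replicate; 0 columns belonged to other samples.

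All 58735 IDs matched GENCODE release 29 (positions, summed exon length, GC content). Genes were filtered with filterByExpr (14370 kept, 44365 dropped), scaled by TMM and tested with edgeR 4.0.16 (robust quasi-likelihood, group as the only term, two-sided; R 4.3.3, limma 3.58.1). The threshold was a Benjamini-Hochberg adjusted p of 0.05. The SE is the log2 fold change divided by the square root of F, and 95% intervals use the residual degrees of freedom of the libraries. The test was checked on simulated data. A count of 3 equals 0.150 to 0.174 CPM, which covers counting error only. Alternatives were other size factors, library totals, no or a stricter filter (1 CPM), DESeq2 1.42.0, limma-voom, a replicate block, length and GC corrections (lowess, span 0.3) and leaving out each library. Members, roles and partner lists were chosen with earlier results of these data known, so their counts are descriptions. Values in each library are given for members with an unadjusted p under 0.05 and for EZH2 and SMYD5. The partner genes past the adjusted threshold are all named; the SMYD3 and individual MORC2 and CBX5 library values were added after their values were seen.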

Additional observations from a re-analysis of the deposited data

How the results depend on the processing

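All-gene calls were 2000 with no low-count filter (1125 as tested), and 11 to 3509 when 1 library was left out. Members past the threshold were 2 as tested (2 lower and 0 higher), where 7.83% of all genes passed. With no filter they numbered 8 (7 lower, 1 higher), where 7.29% of 27442 genes passed. DESeq2 called 6 (5 lower, 1 higher, with 12.7% of all genes) and limma-voom 1 (lower, with 7.59%). Length correction called 1 (0 lower, 1 higher, with 8.68%). Correction by the longest transcript and library totals each called 2 (1 lower, 1 higher, with 9.59% and 9.03% of all genes). Leaving out 1 library gave 0 to 11 members, 0 to 10 lower and 0 to 1 higher. Without Vector replicate 1 the fit called 11 members (23.8% of all genes) and without Vector replicate 3 it called 2 (7.44%). Without Vector replicate 2 or any SETD8 replicate it called 0 members, and 0.0747% to 1.06% of all genes. Members with groups that do not overlap, 12 as tested, 35.3% against 30.3% of all genes, numbered 10 with DESeq2-type size factors (29.4% against 30.5%), 8 with library totals (23.5% against 31.0%) and 14 to 18 when 1 library was left out. Leaving out Vector replicate 1, 2 or 3 gave 52.9%, 50.0% and 41.2% of members, against 51.1%, 36.5% and 38.6% of all genes. Leaving out SETD8 replicate 1, 2 or 3 gave 47.1% of members each, against 38.4%, 40.1% and 38.4% of all genes. These counts were added after the data were seen. Partner genes past the threshold, 8 as tested (7.83% of all genes), numbered 5 with length correction (8.68%) and 5 with the longest transcript (9.59%). They numbered 19 without Vector replicate 1 (23.8% of all genes) and 6 without Vector replicate 3 (7.44%). Leaving out any other library gave 0 (0.0747% to 1.06% of all genes). The cause of these shifts was not tested.

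Deviations of same-numbered libraries from their group means correlated at 0.025, 0.0078 and -0.064, and those of differently numbered ones at -0.095 to 0.092. With 3 libraries per group these values cannot show whether the replicate numbers pair the samples. With a replicate block 1177 genes and 2 members were called. With the replicate block and length correction 0 members (0 lower) and 5 partner genes were called, against 7.5% of all genes.

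Small log2 fold changes changed sign. With length correction, longest-transcript correction and the replicate block with length correction, in that order, SETD7 was 0.044, 0.0026 and 0.043, NSD3 0.037, 0.038 and 0.036, EHMT1 0.21, 0.12 and 0.22, EHMT2 0.038, 0.0037 and 0.045, and SMYD5 -0.058, -0.052 and -0.060. Longest-transcript correction gave SETD1A 0.010 and SMYD2 0.038. Library totals gave SETD3 0.032, EHMT1 0.032, EHMT2 0.023 and SMYD2 0.026, and GC correction gave SETD3 0.0019. Leaving out 1 library gave SETD3 -0.033 to 0.027, SETDB1 -0.041 to 0.13, SUV39H1 -0.22 to 0.0096, EHMT1 -0.042 to 0.037, EHMT2 -0.094 to 0.042, SMYD2 -0.096 to 0.073 and SMYD5 -0.065 to 0.073. The cause of these sign changes was not tested. NSD2 and KMT2D stayed below 0 under every alternative run. SETDB2 had the fewest reads of the members, with 52 to 124 per library.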
